A study of Mus musculus with 6 samples.

Results

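The BCL2 family genes Bcl2, Bcl2l1, Mcl1, Bcl2a1b, Bcl2a1d, Bax, Bak1, Bcl2l11, Pmaip1 and Bbc3 were followed in the transcriptome of regulatory T (Treg) cells with and without miR-142. They were chosen by symbol and make up 10 of the 24421 genes of the count matrix. Splenic CD4+YFP+ Treg cells came from 8- to 11-week-old female C57BL/6 mice, 3 Foxp3Cre mice (WT) and 3 Foxp3Cre miR-142fl/fl mice (KO), with 1 RNA-seq library per mouse. Both genotypes carried the Foxp3Cre-YFP allele, so Cre recombinase and YFP were made in Foxp3-expressing cells of either group, and only the KO mice carried the floxed miR-142 gene. In the order of the replicate numbers, the WT libraries held 15493795, 24042994 and 17779518 counts, and the KO libraries held 18601425, 13883069 and 14822989. Values of a group are listed in this order throughout.

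BCL2 family proteins decide whether the outer membrane of the mitochondrion is breached, the step that commits a cell to intrinsic apoptosis. BCL2, BCL-XL, MCL1 and A1 hold the membrane intact, BAX and BAK form the pores, and BH3-only proteins such as BIM, NOXA and PUMA relay stress signals by binding the protectors or the pore formers. Treg cells depend on this balance, with MCL1 as a main survival factor and BIM as a main trigger of death.

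The microRNA removed in KO Treg cells has the arms miR-142a-5p and miR-142a-3p. Their mature sequences are shown because the 3′ UTRs of the members were searched for matches to their seeds. The sequences come from RefSeq (GRCm38.p6), lie on the plus strand at chr11:87756867-87756887 and chr11:87756903-87756925, and have the seed, bases 2 to 8, in capitals.
mmu-miR-142a-5p: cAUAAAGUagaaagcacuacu
mmu-miR-142a-3p: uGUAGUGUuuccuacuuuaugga

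The longest annotated 3′ UTR of each member was read on the transcribed strand for 7-base matches. These were ACACTAC and CACTACA for miR-142-3p, AACACTA and ACACTAA for a seed of the same arm offset by 1 base, and ACTTTAT and CTTTATA for miR-142-5p. The letters of these motifs overlap, so a UTR can hold several of them at the same place. Bcl2l1 and Pmaip1 each held CACTACA, and Mcl1 held ACTTTAT. The other 7 members held none of the motifs, and no member held an offset site. Among the 10793 tested genes with a 3′ UTR, 13.5% held ACACTAC or CACTACA, 16.2% held an offset site and 24.0% held a miR-142-5p site. A match of letters is a description and does not show that a microRNA binds there. The matches in Bcl2l1 (chr2:152782051-152782057, minus strand, exon 3 of 3) and Mcl1 (chr3:95662645-95662651, plus strand, exon 3 of 3) are shown with the match in capitals.
Bcl2l1 3′ UTR, from GENCODE vM21: aggagaacCACTACAtgcaactc
Mcl1 3′ UTR, from GENCODE vM21: ttcagagcACTTTATgtagttga

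The targeted locus was read first. Mir142 (chr11:87756864-87756927, plus strand) had 0 counts in all 6 libraries. Mir142b, an annotation on the opposite strand that spans it, had counts of 147, 101 and 105 in WT and 7, 5 and 5 in KO. All KO libraries lay below all WT libraries. Because strand was not used in counting, reads of the locus and of its antisense annotation cannot be told apart.

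Expression is given as normalised CPM, which is CPM taken on the library's effective size (total count of the tested genes times its TMM factor). Log2 fold changes (log2FC) are KO over WT from edgeR's quasi-likelihood F (QLF) test, with 95% confidence intervals, and FDR is the Benjamini-Hochberg adjusted p over all 11658 genes tested, those above 1 CPM in at least 3 libraries. In these bulk samples, fewer cells of a kind and less RNA per cell cannot be told apart.

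Treg identity was read from 12 markers, none of which was at 0 in any library. Foxp3, the lineage factor, had 536, 595 and 566 normalised CPM in WT and 642, 749 and 677 in KO. The KO libraries lay above all WT libraries for 5 of the 12 and below them for 2, which were Cd4 (1043, 1015 and 1005 in WT and 833, 867 and 926 in KO) and Cd3e. Across all tested genes the groups did not overlap for 41.0% in either direction and for 22.2% in the higher direction. The most abundant of these markers in KO was Il2ra, at 2258 to 3073 normalised CPM. The summed marker lists of other cells were highest in KO replicate 1. Several lists also summed higher in KO replicates 2 and 3 than in WT, in large part through a few genes named below. Of 13 neutrophil markers in the matrix, 12 were highest in KO replicate 1. The list summed to 5.91, 4.47 and 4.37 normalised CPM in WT and to 1038, 16.8 and 49.5 in KO. S100a9 led it at 247 in KO replicate 1, and Mmp8 and Cxcr2 had 0 counts in each of the other libraries. All 14 monocyte and macrophage markers were highest in KO replicate 1, and the list summed to 9.67, 10.3 and 14.1 normalised CPM in WT and to 2961, 84.7 and 20.7 in KO. Csf1r, the receptor for CSF1, led it with 0.492 to 0.830 in WT and 640, 12.6 and 0.890 in KO. All 11 B cell and plasma cell markers were also highest there, with sums of 24.2, 18.3 and 16.5 in WT and 239, 9.99 and 21.7 in KO, and were led by Cd79b at 49.3. The same held for all 8 dendritic cell markers, which summed to 3.76, 2.99 and 4.04 in WT and to 160, 5.75 and 6.77 in KO and were led by Itgax at 126. For the neutrophil, the monocyte and macrophage and the dendritic cell lists, every KO sum thus lay above every WT sum. Leaving out KO replicate 1 therefore does not remove all of these transcripts. In KO replicates 2 and 3 a few genes made up much of these sums. Zbtb46 had 5.07 and 6.02 normalised CPM there and 2.21 to 2.82 in WT, whereas Xcr1, also a dendritic cell marker, was lower than in WT. Mpo had 6.21 and 32.2 there, against 0.0553 to 0.801 in WT. Vcam1 had 35.1 and 11.2, against 1.60 to 2.28 in WT, whereas Cd68 was lower in both than in WT. The 9 CD8 T and NK cell markers, 6 of which were highest in KO replicate 1, summed to 113, 61.5 and 52.6 normalised CPM in KO and to between 26.8 and 29.9 in WT. Eomes led this list, with 4.35 to 6.69 normalised CPM in WT and 39.1, 42.0 and 29.8 in KO. Without Eomes the sums of KO replicates 2 and 3 were 19.5 and 22.8, against 21.8 to 23.5 in WT. Klra8 had 0 counts in every library.

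Of 8 erythroid genes in the matrix, the 4 globin genes Hba-a1, Hba-a2, Hbb-bs and Hbb-bt had 0 counts in every library. Alas2 was the most abundant of this list, at 8.71 normalised CPM in KO replicate 1, and the list summed to 1.48, 1.31 and 1.05 in WT and to 14.8, 3.94 and 3.83 in KO.

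WT replicate 1 stood apart in another way. A list of 12 immediate-early genes, chosen after the values were seen, summed to 1382, 5043 and 7501 normalised CPM in WT and to 3258, 4800 and 4559 in KO. The lowest value of 8 of these genes was in WT replicate 1. Junb, the most abundant, had 476 normalised CPM there and 845 to 3080 in the others. None of the 12 was at 0 in any library.

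**Figure D1:**
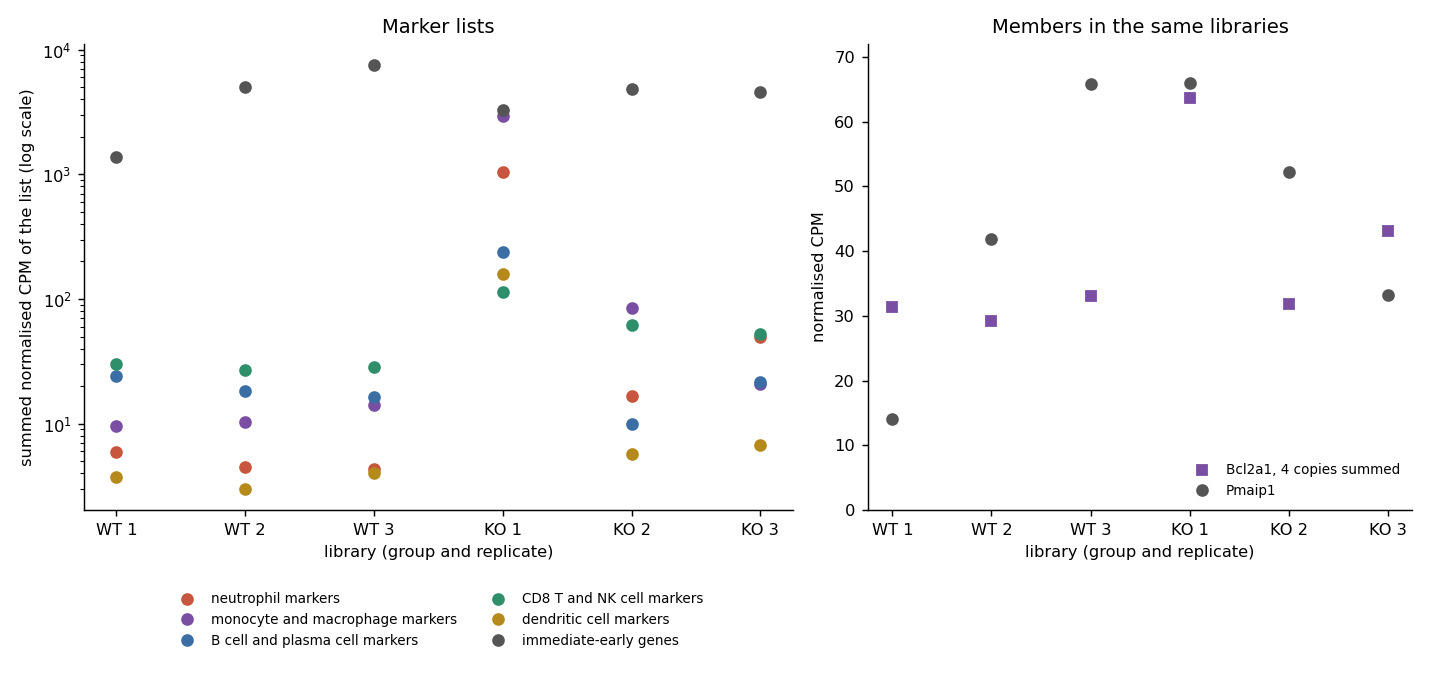
Summed normalised CPM of each marker list by library on a log scale (left), and normalised CPM of the 4 Bcl2a1 copies summed and of Pmaip1 in the same libraries (right). KO replicate 1 is highest for all 5 lists of other cell types and for the Bcl2a1 sum at 63.7, and WT replicate 1 is lowest for the immediate-early genes at 1382 and for Pmaip1 at 14.0.

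All 10 members passed the filter. Of these, 2 had an FDR under 0.05 and both were higher in KO, Bcl2l1, which encodes the protector BCL-XL, and Bbc3, which encodes the death trigger PUMA. Across all tested genes 18.8% were called, 11.6% as higher and 7.27% as lower, so the members' share of calls was near the background. No member was called lower by the QLF test, and 0 were lower at an unadjusted p under 0.05 or by DESeq2. The groups did not overlap for 3 members, Bcl2l1, Bbc3 and Bcl2a1d, all higher in KO, beside 41.0% of all tested genes in either direction and 22.2% in the higher direction. The median log2FC of the members was 0.32, and that of all tested genes was 0.016. A positive log2FC was found for 8 of the 10 members, and for 7 when libraries were scaled by size alone, which turned Mcl1 to -0.0040. Without KO replicate 1 the calls were again Bcl2l1 and Bbc3, beside 17.3% of all tested genes, and the median of the members was 0.15. The count of members called was 0 without WT replicate 2 or WT replicate 3, 1 without WT replicate 1 or KO replicate 3, and 5 without KO replicate 2, which added Bak1, Bcl2a1b and Bcl2a1d. The share called among all tested genes moved as well, to 5.98% and 6.85% without WT replicates 2 and 3, 8.87% and 13.2% without WT replicate 1 and KO replicate 3, and 20.4% without KO replicate 2.

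**Figure D2:**
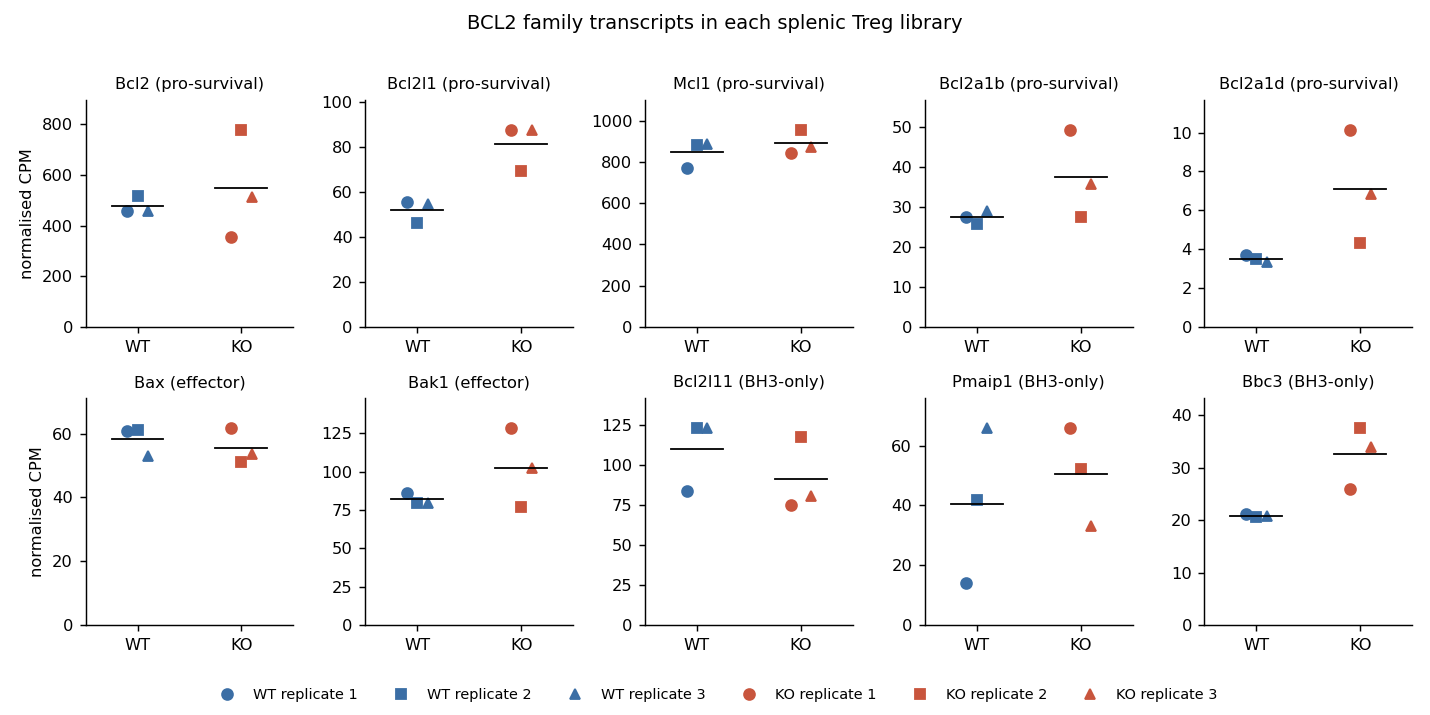
Normalised CPM of the 10 members in each library, with WT in blue, KO in red, the replicate by symbol and the group mean as a line, on axes that start at 0. The groups are apart for Bcl2l1, Bcl2a1d and Bbc3 and overlap for the other 7 members.

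Among the protectors, Bcl2l1 (chr2:152780668-152831728, minus strand) changed. It had 55.5, 46.2 and 54.4 normalised CPM in WT and 87.4, 69.0 and 87.6 in KO. The lowest KO library lay above the highest WT library, and the spread within each group was smaller than the gap between the means. The means were 52.1 ± 5.06 in WT and 81.3 ± 10.7 in KO (SD, n = 3 per group). This gave a log2FC of 0.64 (SE 0.13, 95% interval 0.35 to 0.94) or 1.56-fold, with an FDR of 0.0152 in edgeR's QLF test. BCL-XL guards activated T cells in particular. Without KO replicate 1 the log2FC was 0.57 (FDR = 0.0248). The call was lost without WT replicate 2 (log2FC 0.56, FDR = 0.0718) or WT replicate 3 (log2FC 0.67, FDR = 0.0558), within a range of 0.000282 to 0.0718 over 16 alternatives.

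Bcl2 (chr1:106538178-106714274, minus strand), the founding member, keeps resting lymphocytes alive. Its values were 456, 515 and 456 normalised CPM in WT and 353, 779 and 513 in KO. The KO libraries spanned the whole WT range, with KO replicate 1 below and KO replicate 2 above every WT library. Bcl2 had a log2FC of 0.20 (SE 0.26, 95% interval -0.40 to 0.81, FDR = 0.617). The direction turned on 1 library, since the log2FC was -0.13 without KO replicate 2 and 0.42 without KO replicate 1. The SD was 34.1 normalised CPM in WT and 215 in KO.

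Mcl1 (chr3:95658788-95663176, plus strand) encodes a short-lived protector that is controlled largely through turnover of the protein. It had 769, 882 and 888 normalised CPM in WT and 842, 957 and 873 in KO. The groups overlapped, and WT replicate 1 was the lowest of all libraries. For Mcl1 the log2FC was 0.07 (SE 0.10, 95% interval -0.17 to 0.32, FDR = 0.657). It was -0.018 without WT replicate 1.

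Bcl2a1b and Bcl2a1d encode copies of A1, a protector induced by NF-κB in activated lymphocytes and abundant in myeloid cells. The mouse A1 genes Bcl2a1a, Bcl2a1b and Bcl2a1d on chromosome 9 are near-identical, which limits what short reads can assign. Of the 51-base stretches of the annotated transcripts, the length of 1 read here, 57.0% of those in Bcl2a1b and 79.0% of those in Bcl2a1d also occur in another copy. In Bcl2a1c the share is 9.90%. The coding sequences of Bcl2a1b and Bcl2a1d, each of 519 bases, differ at 6 positions, and Bcl2a1a differs from Bcl2a1b at 11. The first 30 coding bases, from GENCODE vM21, are shown with the positions where the copies differ in capitals.
Bcl2a1a: atgGctgagtCTgagCtcatgCatatccac
Bcl2a1b: atgGctgagtACgagTtcatgTatatccac
Bcl2a1d: atgTctgagtACgagTtcatgTatatccac

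Counts of single copies are therefore uncertain. Bcl2a1b (chr9:89199209-89207827, plus strand) had 27.5, 25.7 and 29.1 normalised CPM in WT and 49.3, 27.4 and 35.7 in KO. KO replicate 1 was the highest, and KO replicate 2 lay among the WT libraries. Bcl2a1b had a log2FC of 0.45 (SE 0.21, 95% interval -0.028 to 0.93, FDR = 0.166), and 0.19 (FDR = 0.421) without KO replicate 1. A second gene model, Gm29094, overlaps Bcl2a1b on the same strand.

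Bcl2a1d (chr9:88723285-88731914, minus strand) was at a lower level, with 3.70, 3.48 and 3.32 normalised CPM in WT and 10.2, 4.32 and 6.84 in KO. All KO libraries lay above all WT libraries, and KO replicate 1 was again the highest. For Bcl2a1d the log2FC was 1.03 (SE 0.32, 95% interval 0.28 to 1.77) with an FDR of 0.0630 in the QLF test, over the threshold. It passed with edgeR's likelihood ratio test (FDR = 0.0395), its exact test (FDR = 0.0440), DESeq2 (adjusted p = 0.0254) and without KO replicate 2 (FDR = 0.0156), within a range of 0.0156 to 0.181 over 16 alternatives. Without KO replicate 1 the log2FC was 0.66 (FDR = 0.119).

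Bcl2a1a, not tested because of its low counts, had 2, 0 and 1 counts in WT and 70, 0 and 5 in KO. Nearly all of its counts therefore came from the library where the neutrophil and macrophage markers were highest. The remaining copy, Bcl2a1c, had 12 counts or fewer in every library. Summed over the 4 copies, A1 transcripts had 31.4, 29.2 and 33.1 normalised CPM in WT and 63.7, 31.9 and 43.1 in KO. KO replicate 2 lay within the WT range, and KO replicate 1 lay far above the rest. The sum had a log2FC of 0.57 (SE 0.23, 95% interval 0.021 to 1.11, FDR = 0.131), 0.25 (FDR = 0.302) without KO replicate 1 and 0.78 (FDR = 0.0279) without KO replicate 2, within a range of 0.0279 to 0.317 over the 6 fits that leave out 1 library. The part of the other cell types' transcripts in the A1 values was not tested.

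The pore formers did not pass the test. Bax (chr7:45461697-45466898, minus strand) had 60.8, 61.2 and 53.1 normalised CPM in WT and 61.9, 51 and 53.5 in KO. The groups overlapped almost completely. The log2FC of Bax was -0.072 (SE 0.11, 95% interval -0.33 to 0.18, FDR = 0.683). It was -0.18 (FDR = 0.323) without KO replicate 1 and -0.0084 (FDR = 0.963) without KO replicate 2, the ends of its FDR range over 16 alternatives.

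Bak1 (chr17:27019810-27029009, minus strand) encodes BAK, which sits in the outer membrane and is held in check by MCL1 and BCL-XL. It had 86.3, 79.9 and 79.9 normalised CPM in WT and 129, 76.7 and 102 in KO. KO replicates 1 and 3 were above every WT library, and KO replicate 2 was the lowest of all. Bak1 had a log2FC of 0.32 (SE 0.18, 95% interval -0.089 to 0.74, FDR = 0.235). It was 0.11 (FDR = 0.608) without KO replicate 1 and passed at 0.50 (FDR = 0.0301) without KO replicate 2, and the FDR ranged from 0.0301 to 0.608 over 16 alternatives.

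Of the BH3-only genes, Bbc3 (chr7:16308393-16318205, plus strand) changed. Its product PUMA binds all protectors and is induced by p53 and by FOXO factors. Bbc3 had 21.1, 20.6 and 20.7 normalised CPM in WT and 26.0, 37.6 and 33.9 in KO. The WT libraries lay close together and every KO library was above them, KO replicate 1 by the smallest margin. The means were 20.8 ± 0.239 in WT and 32.5 ± 5.95 in KO (SD, n = 3 per group). This gave a log2FC of 0.64 (SE 0.15, 95% interval 0.29 to 0.99) with an FDR of 0.0261 in edgeR's QLF test. It was larger without KO replicate 1, at 0.77 (FDR = 0.00463). The call was lost without WT replicate 1 (FDR = 0.0879), WT replicate 2 (FDR = 0.105), WT replicate 3 (FDR = 0.0952) or KO replicate 3 (FDR = 0.0733), although the log2FC was 0.60 to 0.64 in these fits. Over 16 alternatives the FDR ranged from 0.00281 to 0.105.

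Bcl2l11 (chr2:128126038-128162547, plus strand) encodes BIM, which removes lymphocytes deprived of cytokine. It had 84.0, 124 and 123 normalised CPM in WT and 75.3, 118 and 80.9 in KO. KO replicates 1 and 3 were the lowest, but WT replicate 1 lay close to them and KO replicate 2 lay near the higher WT libraries. Bcl2l11 had a log2FC of -0.27 (SE 0.21, 95% interval -0.77 to 0.23, FDR = 0.405). Leaving out KO replicate 1 moved it to -0.17 (FDR = 0.623), leaving out WT replicate 1 to -0.46 (FDR = 0.192) and leaving out KO replicate 2 to -0.49 (FDR = 0.0984). It passed in none of 16 alternatives, whose FDR ranged from 0.0984 to 0.693.

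Pmaip1 (chr18:66458533-66465565, plus strand) encodes NOXA, which neutralises MCL1 and A1. It had the largest SE of the members, with 14.0, 41.9 and 65.8 normalised CPM in WT and 66.1, 52.2 and 33.3 in KO. WT replicate 1, the library low in immediate-early genes, was the lowest, and the other libraries of both groups covered the same range. Pmaip1 had a log2FC of 0.31 (SE 0.50, 95% interval -0.86 to 1.49, FDR = 0.697), and it turned to -0.12 (FDR = 0.838) without WT replicate 1, within an FDR range of 0.322 to 0.956 over 16 alternatives. The part of the immediate-early genes in this value was not tested.

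**Figure D3:**
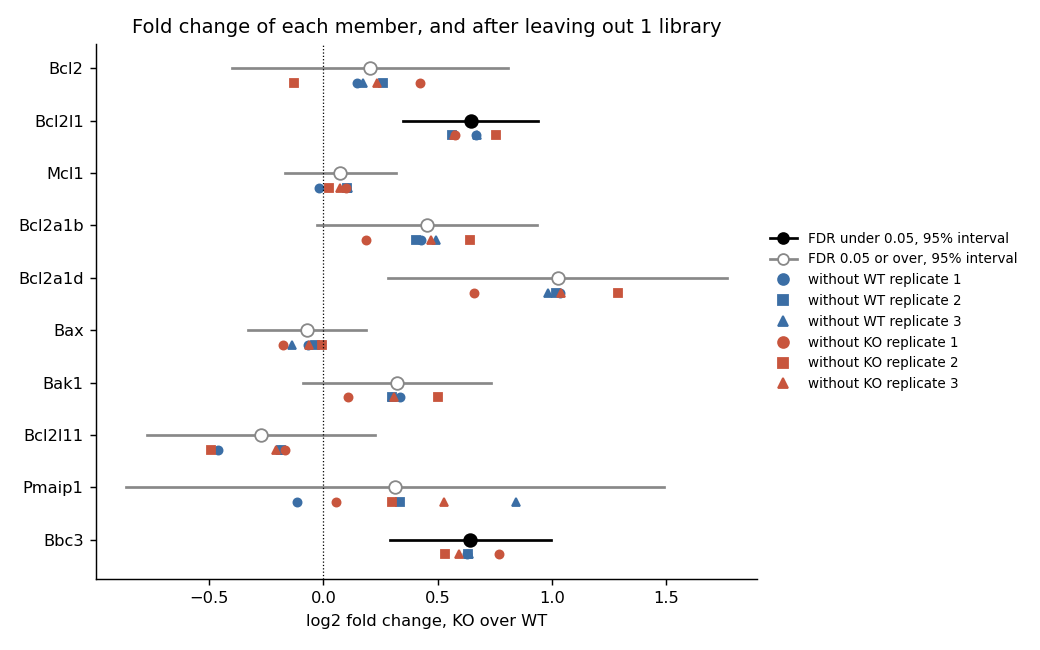
Log2 fold change (KO over WT) of each member with its 95% interval, filled for an FDR under 0.05, and below it the value after leaving out each library in turn. Bcl2l1 and Bbc3, both at 0.64, stay on the same side of 0 in every case, whereas Bcl2, Mcl1 and Pmaip1 cross it when 1 library is left out.

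Levels were compared between genes per kilobase (kb) of merged exons of the GENCODE vM21 annotation, as a description. Mcl1 was the most abundant member, at 248 ± 19.7 normalised CPM per kb in WT and 261 ± 17.5 in KO (SD, n = 3 per group). Bcl2 followed at 52.0 ± 3.73 in WT. Both protectors lay above the pore formers in every WT library, but in KO replicate 1 Bcl2 (38.6) was below Bax (39.3) and Bak1 (53.5). Bax (37.0 ± 2.91), Bak1 (34.1 ± 1.55) and Bcl2a1b (33.6 ± 2.11) came next in WT, and neighbours in this order overlapped between libraries. Below them, with overlapping ranges, were Pmaip1 (14.9 ± 9.48), Bcl2l11 (13.7 ± 2.83) and Bcl2l1 (11.4 ± 1.10). Bbc3 (9.79 ± 0.112) and Bcl2a1d (4.06 ± 0.218) had the lowest means in WT, although Pmaip1 in WT replicate 1 (5.14) lay below Bbc3. In KO the means of Bcl2l1 (17.7 ± 2.33) and Bbc3 (15.3 ± 2.80) stood above that of Bcl2l11 (11.4 ± 2.88), which ranked 7 in WT and 9 in KO, though the KO libraries of Bbc3 and Bcl2l11 overlapped. The members that rose were among those with low transcript levels per length.

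**Figure D4:**
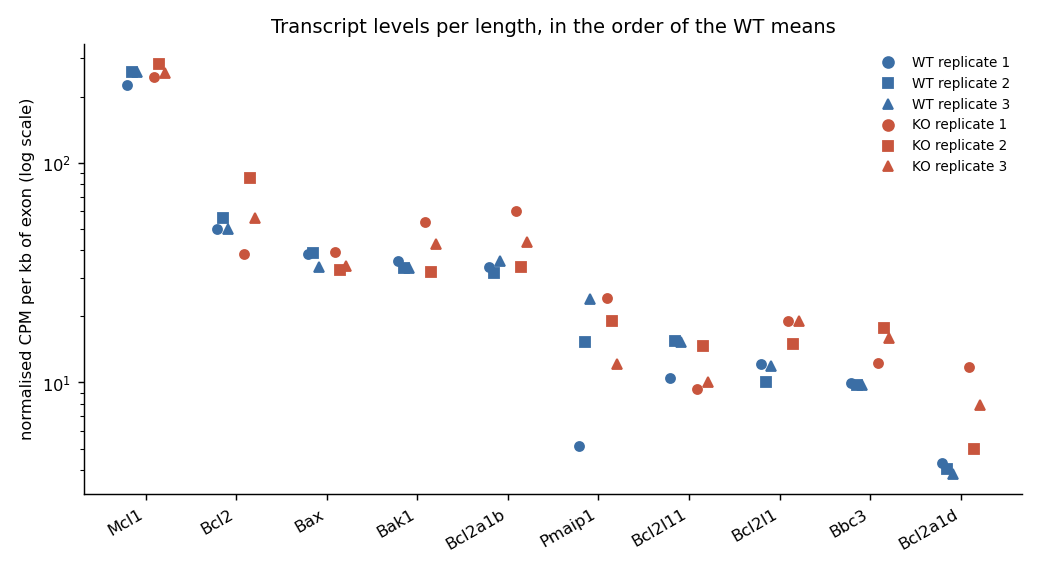
Normalised CPM per kb of exon on a log scale for each member and library, ordered by the WT mean, with WT in blue and KO in red. Mcl1 lies far above the others at 248 in WT, and Bcl2a1d is lowest at 4.06.

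The balance of a death gene to a survival gene within a library does not depend on the scaling between libraries. The log2 ratio of Bcl2l11 to Bcl2 counts was -2.44, -2.06 and -1.89 in WT and -2.23, -2.72 and -2.67 in KO. KO replicates 2 and 3 were below all WT libraries and KO replicate 1 was among them, a difference of -0.41 (SE 0.23, exact permutation p = 0.2, two-sided, adjusted 0.3 over 3 ratios). For Bcl2l11 to Mcl1 the log2 ratios were -3.19, -2.84 and -2.85 in WT and -3.48, -3.02 and -3.43 in KO. KO replicates 1 and 3 lay below all WT libraries, and the difference was -0.35 (SE 0.19, exact permutation p = 0.2, adjusted 0.3). The log2 ratio of Bax to Bcl2 was -2.91, -3.07 and -3.10 in WT and -2.51, -3.93 and -3.26 in KO. KO libraries lay on both sides of WT, and the difference of -0.21 (SE 0.41, exact permutation p = 0.7, adjusted 0.7) turned to 0.14 without KO replicate 2 and was -0.57 (p = 0.1, the smallest possible) without KO replicate 1. With 3 mice against 3 the smallest p this test can give is 0.1.

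The other BCL2 relatives were taken from a list of 20 genes, of which 13 were tested. Of these, 2 (15.4%, beside 18.8% of all tested genes) were called, both higher in KO, with a median log2FC of 0.10 that turned to -0.12 without KO replicate 1. None was lower by the QLF test or DESeq2, and 2 were lower at an unadjusted p under 0.05. Bcl2l15, a little-studied relative, had 1.66, 1.48 and 1.55 normalised CPM in WT and 4.72, 5.60 and 6.02 in KO. It was low throughout but apart between the groups, with a log2FC of 1.80 (SE 0.22, FDR = 0.00295). Bcl2l13, an outer-membrane protein linked to mitophagy, had 70.1, 75.3 and 77.0 normalised CPM in WT and 90.1, 98.1 and 94.4 in KO, a log2FC of 0.34 (SE 0.082, FDR = 0.0277). Bcl2l15 alone of the list was called when any 1 WT library or KO replicate 3 was left out, with an FDR of up to 0.115 for Bcl2l13 at a log2FC of 0.28 to 0.37. The BH3-only gene Bmf, named after its values were seen, was high in WT replicate 1, with 19.0, 5.74 and 5.92 normalised CPM in WT and 13.0, 8.10 and 7.05 in KO. Its groups overlapped, and the log2FC of -0.11 (FDR = 0.896) turned to 0.66 (FDR = 0.215) without that library, which was the lowest for Pmaip1. Hrk, a BH3-only gene of neurons, had 0 counts in all 6 libraries.

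Downstream of the pore, 5 of 22 genes for the apoptosome, caspases and their inhibitors were called, all 5 higher in KO. This share, 22.7%, is near the 18.8% of all tested genes. The median log2FC was 0.060, and it turned to -0.0065 without KO replicate 1 and to -0.018 with library size alone. By DESeq2, which called 2863 of all 11658 tested genes, 5 of this list were higher and 1 was lower. At an unadjusted p under 0.05, 1 was lower. Birc2 encodes cIAP1, a ubiquitin ligase of NF-κB and TNF receptor signalling. It had 149, 181 and 190 normalised CPM in WT and 380, 463 and 382 in KO, a log2FC of 1.24 (SE 0.13, FDR = 0.00182). Its neighbour on chromosome 9, Birc3, encodes cIAP2 and had a log2FC of 0.42 (SE 0.093, FDR = 0.0226). Vdac2, an outer-membrane channel that binds BAK, had a log2FC of 0.43 (SE 0.097, FDR = 0.0234), and 0.33 (FDR = 0.0401) without KO replicate 1. Without any 1 of the WT libraries, the count of this list was 1, which was Birc2.

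Of 19 tested genes of the death receptor pathway, 2 were called higher and 2 lower, together 21.1% beside 18.8% of all tested genes. The median log2FC of 0.036 turned to -0.0092 without WT replicate 1 and to -0.040 with library size alone. Fasl, the ligand of the death receptor FAS, had 7.76, 5.70 and 11.8 normalised CPM in WT and 2.28, 2.20 and 1.03 in KO. All KO libraries were below WT, and the log2FC was -2.19 (SE 0.39, FDR = 0.0112). Tnfrsf10b, the mouse TRAIL receptor, had a log2FC of -0.91 (SE 0.24, FDR = 0.0396). When 1 library was left out, this call was lost unless that library was KO replicate 1, at a log2FC of -1.06 to -0.67. It was also lost with no filter (FDR = 0.0604) and with replicate number as a block (FDR = 0.0732). Tnfrsf1a, which encodes TNF receptor 1, had 38.6, 37.0 and 37.0 normalised CPM in WT and 101, 62.1 and 62.2 in KO. KO replicate 1, the library highest in macrophage markers, was the highest, and the log2FC was 1.0 (SE 0.20, FDR = 0.0148) with it and 0.71 (FDR = 0.00341) without it. Ripk3, the kinase of necroptosis, had a log2FC of 0.43 (SE 0.093, FDR = 0.0204). Without any 1 of the WT libraries, the count of this list was 1, which was Fasl, and without KO replicate 3 it was 2.

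Among 43 upstream regulators, 10 were called higher and 2 lower, together 27.9% beside 18.8% of all tested genes, with a median log2FC of 0.088. The lower calls were Pik3r1 (log2FC -0.35, FDR = 0.0334) and Runx1 (log2FC -0.39, FDR = 0.0457). Both were lost without KO replicate 1 (log2FC -0.30 and -0.40, FDR = 0.0622 and 0.0626), KO replicate 3, WT replicate 2 or WT replicate 3 and with replicate number as a block. Without WT replicate 1 the call of Pik3r1 was also lost (FDR = 0.0827), and that of Runx1 was kept (FDR = 0.0471). The genes for the α and β chains of the IL-2 receptor, which signals through STAT5, were among the higher genes, and Il2rg, for its γ chain (log2FC 0.38), was not called. Socs2, a STAT5 target, had 35.8, 38.2 and 42.8 normalised CPM in WT and 219, 267 and 189 in KO, a log2FC of 2.53 (SE 0.15, FDR = 0.000393). The IL-2 receptor α chain gene Il2ra had 799, 744 and 726 normalised CPM in WT and 2258, 2404 and 3073 in KO (log2FC 1.77, SE 0.14, FDR = 0.000880). Il2rb, which encodes the β chain, had 1032, 1011 and 1044 normalised CPM in WT and 2094, 2101 and 2099 in KO (log2FC 1.03, SE 0.087, FDR = 0.000996). For these 3 genes the KO libraries lay far above every WT library. Trp73, a p53 relative and 1 of the 10 higher calls, had 10 counts in the WT libraries together and 176 in the KO libraries together. It passed the filter only through the KO libraries and was not tested when any 1 of them was left out. The count and share called in this list include Trp73. Without WT replicate 2 the count of this list was 6, and without WT replicate 3 it was 7.

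Of 19 tested p53 target genes, among them the 3 members Bbc3, Pmaip1 and Bax, 2 were called higher and 1 lower, together 15.8% beside 18.8% of all tested genes. The median log2FC of 0.038 turned to -0.069 without WT replicate 1 and to -0.043 with library size alone. The called genes were Perp, Bbc3 and Tnfrsf10b. Perp, a membrane protein gene, had 0.431, 0.779 and 1.55 normalised CPM in WT and 11.6, 7.87 and 5.75 in KO. Because it was low in WT and passed the filter through the KO libraries, these values are a description. The count and share called in this list include Perp. Without any 1 of the WT libraries or KO replicate 3, the calls of Bbc3 and Tnfrsf10b were both lost. Perp stayed called in these fits, so the counts left there include it.

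**Figure D5:**
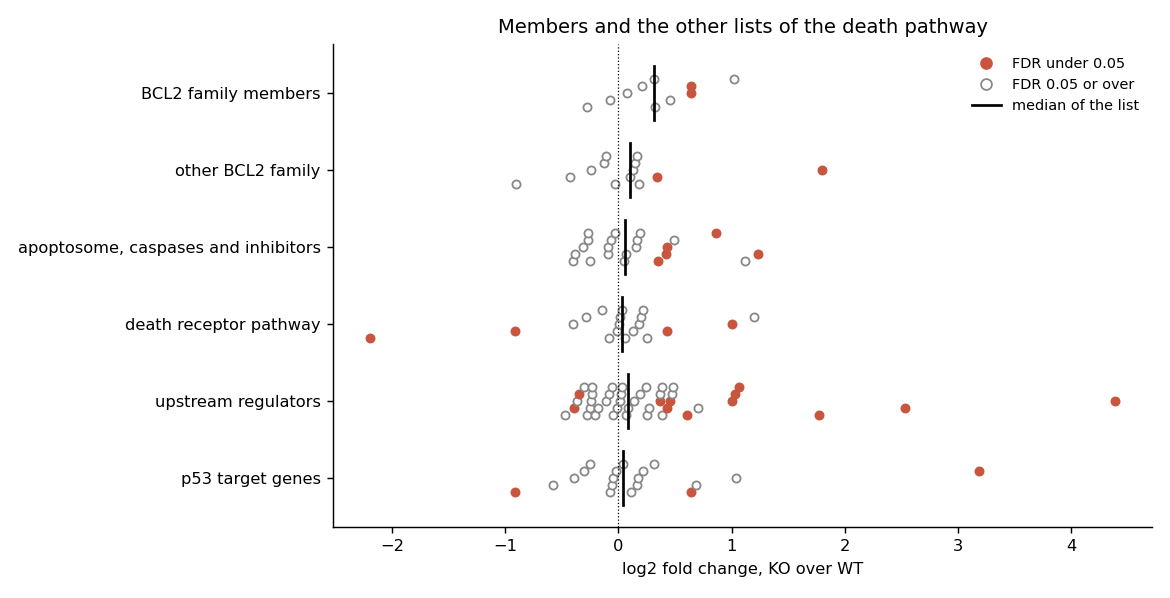
Log2 fold change (KO over WT) of each tested gene in the 10 members and in the 5 other lists, filled red for an FDR under 0.05, with the median of the list as a line. The median is 0.32 for the members and between 0.036 and 0.10 for the other lists, 4 of which change sign when a single library is left out, and the called genes are a minority of every list.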

How the data were processed

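RNA-seq libraries of sorted Treg cells were compared between 3 WT and 3 KO mice, which the series describes as biological replicates. The authors aligned 51-base single-end reads to mm10 with HISAT, counted them with featureCounts in its unstranded mode, and deposited the unnormalised count of each gene. How reads that match several genes were treated is not given in the sources used here. Genes above 1 CPM in at least 3 libraries were normalised by TMM and tested with edgeR 4.0.16 in R 4.3.3 (QLF test, FDR threshold 0.05). DESeq2 1.42.0 was an alternative. Ratios used log2 of the count plus 0.5. Positions and 3′ UTRs are those of GENCODE vM21 (GRCm38, the build of mm10). Only the QLF fit was run on simulated counts, with the same dispersion for all genes. That run does not cover libraries that stand apart, or the ratio, site and Bcl2a1 steps. Named genes were the members, the targeted locus, the Bcl2a1 copies, the most abundant gene of each marker list and, from each other list, at most 4 called genes with the smallest p whose groups did not overlap. Other genes, such as Foxp3, Cd4, Cd3e, Bmf, Hrk, Il2rg, Pik3r1, Runx1 and genes with 0 counts, were named after their values were seen. The same holds for Zbtb46, Xcr1, Mpo, Vcam1 and Cd68. A gene that the rule names is not reported here. The members and lists were chosen with earlier results of these data known. Alternatives covered normalisation, tests, filters, threshold, replicate block, leaving out each library, pseudocount and UTR choice. Intervals and p-values cover 3 mice per group.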

Additional observations from a re-analysis of the deposited data

How the results depend on the processing

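An FDR under 0.01 in place of 0.05 left 686 of 2197 genes called, 0 of the 10 members, 1 other BCL2 relative, 1 gene of the apoptosome list, 0 of the death receptor list, 7 upstream regulators and 1 p53 target. That p53 target was Perp, and the upstream regulators included Trp73, both of which passed the filter through the KO libraries. The count of other BCL2 relatives was also 1 with library size alone or with no filter. Without TMM factors, 1064 genes were called higher and 1201 lower, against 1350 and 847 with them, and the median log2 fold change of all genes was -0.061 in place of 0.016. The same scaling turned Mcl1 to -0.0040. The cause was not tested.

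The sample labels give no pairing of the mice by replicate number. The deviations of same-numbered libraries from their group means had correlations of 0.0804, -0.0056 and -0.195. These cannot decide whether mice were paired, because deviations of 3 libraries from their own mean depend on each other. With replicate number as a block, 1606 genes, 2 members, 1 other BCL2 relative and 3 genes of the apoptosome list were called. In the same fit 3 genes of the death receptor list, 9 upstream regulators and 2 p53 targets were called.

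Leaving out each library in turn gave 691 to 2340 genes, 0 to 5 members, 1 to 2 other BCL2 relatives, 1 to 6 genes of the apoptosome list, 1 to 5 of the death receptor list, 6 to 15 upstream regulators and 1 to 3 p53 targets. The log2 fold change ranged from -0.13 to 0.42 for Bcl2, from -0.018 to 0.11 for Mcl1 and from -0.12 to 0.84 for Pmaip1, with the sign turned by leaving out KO replicate 2 for Bcl2 and WT replicate 1 for Mcl1 and Pmaip1. The difference in log2 ratio ranged from -0.57 to -0.29 for Bcl2l11 to Bcl2, from -0.50 to -0.27 for Bcl2l11 to Mcl1 and from -0.57 to 0.14 for Bax to Bcl2. Fits with 5 libraries have fewer degrees of freedom. Of 171 member values under alternatives, 153 kept their direction and side of the threshold, 8 lost the call, 6 gained it and 4 reversed. For the summed Bcl2a1 copies, leaving out libraries was an alternative chosen after seeing the data. The union of all annotated 3′ UTRs gave the same counts of members with sites. Bcl2a1d had as few as 57 counts in a library, which limits its precision.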
